A study of Caenorhabditis elegans with 2 samples.

Results

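The 261 genes of biotype miRNA in the Ensembl release 115 annotation of WBcel235 (the assembly also called ce11) were examined for peaks of FKH-2, a forkhead transcription factor, in Caenorhabditis elegans, out of 46890 annotated genes on the 6 nuclear chromosomes. For each gene the nearest peak of the pooled list whose point lay within 2000 bp of the gene was taken, together with its rank by the authors' score (rank 1 is the highest) and the peaks of both replicates that overlapped it by at least 1 bp. Where several peaks of 1 replicate did, the values given are of the one with the largest overlap. The protein was tagged with green fluorescent protein (eGFP-fkh-2) and mapped by chromatin immunoprecipitation and sequencing in whole mixed-sex animals at the L3 larval stage. The animals were of strain OP185, with the genotype unc-119(ed3) III and the transgene wgIs185, so both libraries carried the unc-119 mutation and tagged fkh-2. The labels give fkh-2 as the antibody and name 2 biological replicates of 1 group. Whole larvae mix all cell types, so a peak in few cells and weak binding in many cannot be told apart, and the peak lists hold no expression values with which to check the stage or tissue.

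MicroRNAs are short RNAs cut from hairpin precursors, and bases 2 to 8 of the mature strand, the seed, pair with target messenger RNAs and lower their output. In C. elegans, lin-4 and let-7 are the founding members, and both set the timing of larval development. lin-4 represses lin-14 and lin-28, let-7 represses lin-41, and the let-7 relatives mir-48, mir-84 and mir-241 act together at an earlier larval transition. Transcription of a microRNA gene starts upstream of the hairpin, at a site that the hairpin annotation used here does not give.

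The pooled and the replicate 1 lists each held 30000 peaks and the replicate 2 list held 24744. The optimal set by IDR (irreproducible discovery rate, a method meant to keep peaks whose ranks repeat between replicates) held 203. All 203 scored at least 22.2 in the pooled list, so an IDR peak is not evidence apart from a high pooled rank. Of the 203 highest-ranked pooled peaks, 195 overlapped a peak of both replicates. The pooled and replicate lists were deposited as input for IDR and include weak regions. Scores ran from 4.26 to 85.4 in the pooled list, from 2.61 to 53.8 in replicate 1 and from 2.00 to 38.4 in replicate 2, so scores were compared within a list and ranks were set beside each other. The lists give no read numbers, and the depth is unknown.

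The mature strands of the genes described most fully are shown with the seed in capitals. The families named here are set lists that differ in part from groups with 1 seed. The mir-58 family includes mir-58.1, which is not in the seed group of mir-80, and the let-7 family leaves out mir-795, which has its seed. They were read from the RefSeq WBcel235 genome at the mature coordinates of the RefSeq annotation. lin-4 and mir-237 share 1 seed, and let-7, mir-48, mir-84 and mir-241 share another. The mir-51 family, of which mir-52 is shown, has the seed ACCCGUA, and mir-90 has the seed GAUAUGU.
lin-4: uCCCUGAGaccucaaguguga
mir-237: uCCCUGAGaauucucgaacagcu
let-7: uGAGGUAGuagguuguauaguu
mir-48: uGAGGUAGgcucaguagaugcga
mir-84: uGAGGUAGuauguaauauuguaga
mir-241: uGAGGUAGgugcgagaaauga
mir-52: cACCCGUAcauauguuuccgugcu
mir-90: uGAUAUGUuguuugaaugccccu

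The 101 bases around some pooled peak points are shown on the plus strand of WBcel235 (RefSeq genome). They are from strong and heterochronic loci and from mir-56, and are the DNA behind some of the values that follow. Capitals mark the forkhead cores GTAAACA and ATAAACA and the repeat GAGAGA, on either strand. The mir-241 window is chrV:14366660-14366760, the mir-52 windows are chrIV:14033635-14033735 and chrIV:14033843-14033943, and the mir-90 window is chrIII:8874381-8874481. The let-7 window is that of its highest-scoring peak, at chrX:14747126-14747226. The mir-56 window is chrX:13144400-13144500 and the lin-4 window is chrII:5901958-5902058.
mir-241, rank 79: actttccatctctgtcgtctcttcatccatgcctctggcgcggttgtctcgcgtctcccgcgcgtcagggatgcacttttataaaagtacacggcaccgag
mir-52, rank 33: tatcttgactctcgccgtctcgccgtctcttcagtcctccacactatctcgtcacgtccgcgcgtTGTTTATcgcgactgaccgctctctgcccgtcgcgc
mir-52, rank 137: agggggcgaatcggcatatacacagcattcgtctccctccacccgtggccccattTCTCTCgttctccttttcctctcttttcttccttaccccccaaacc
mir-90, rank 161: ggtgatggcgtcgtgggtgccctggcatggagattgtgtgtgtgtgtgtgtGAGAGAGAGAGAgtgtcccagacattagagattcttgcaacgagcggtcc
let-7, rank 621: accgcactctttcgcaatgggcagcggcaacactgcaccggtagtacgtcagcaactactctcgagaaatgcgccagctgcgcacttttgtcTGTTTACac
mir-56, rank 1316: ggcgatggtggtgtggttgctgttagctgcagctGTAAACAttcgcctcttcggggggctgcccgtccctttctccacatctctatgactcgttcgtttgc
lin-4, rank 4189: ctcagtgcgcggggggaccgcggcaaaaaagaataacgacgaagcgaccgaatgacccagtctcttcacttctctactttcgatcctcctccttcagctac
Forkhead cores stand in 1 of the mir-52 windows, in the let-7 window and in the mir-56 window. GAGAGA stands in the other mir-52 window shown and in the mir-90 window, while the mir-241 and lin-4 windows hold neither motif. Among windows not shown, those of mir-54 (rank 919), mir-48 (rank 4619), the nearest let-7 peak (rank 6318) and mir-84 (rank 12039) hold neither motif. The window of a further mir-52 peak (rank 114) holds GAGAGA and no core. The windows shown were picked, so they give no rate of cores. A match is a description of the letters and not a binding site, and no match says only that these letters are not in the window.

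Of the 261 microRNA genes, 203 (77.8%, Wilson 95% interval 72.4 to 82.4) had a pooled peak point within 2000 bp, against 71.4% of genes of all biotypes. Intervals cover counting error over genes or peaks only. The same window around all pooled points covered 70.1% of the genome, so most genes of any kind had a peak this near. The background depends on which genes it holds. Without the 15363 piRNA genes, of which 49.4% had a peak, the share over all other genes was 82.1%, above that of microRNA genes. Measured from the 5′ end of each gene, which leaves gene length out, the share was 77.8% for microRNA genes, 73.6% for all genes other than piRNA genes and 65.6% for all biotypes. A share near the background is not a result about microRNA genes.

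**Figure D1:**
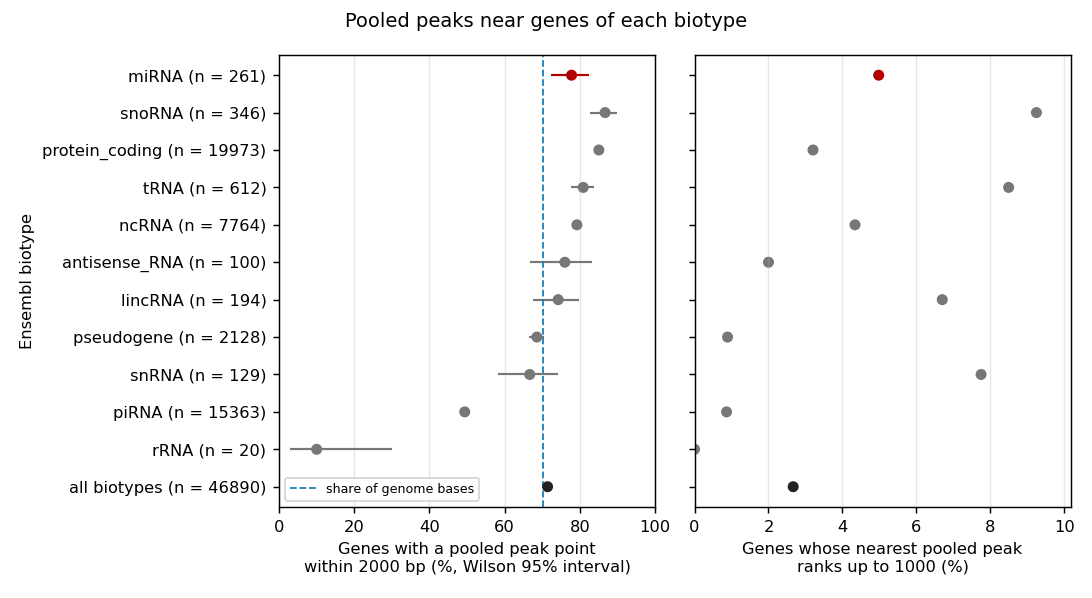
Left, share of genes of each Ensembl biotype with a pooled peak point within 2000 bp of the gene, with Wilson 95% intervals and the share of genome bases as a dashed line; right, share of all genes of the biotype whose nearest pooled peak ranks up to 1000. MicroRNA genes (red, top) had 77.8% and 4.98%, against 71.4% and 2.67% for all biotypes (black, bottom), and snoRNA genes had more than microRNA genes in both panels.

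The 203 genes took 176 distinct peaks, because 43 genes shared 16 peaks with a neighbouring microRNA gene. Counted as loci, with genes less than 2000 bp apart joined, 166 of 214 loci (77.6%) had a peak. Pooled scores of the nearest peaks ran from 4.29 to 29.1 with a median of 6.75. Their median rank was 12160 (quartiles 5969.5 and 20727), against 13538.5 for the nearest peaks of genes of all biotypes. The nearest peak ranked up to 1000 for 13 genes, 4.98% of microRNA genes against 2.67% of all genes. It ranked up to 5000 for 42 genes, 16.1% of microRNA genes against 14.1% of all genes, and it was past rank 20000 for 56. Against all genes other than piRNA genes, the share up to rank 1000 was still higher, at 4.98% against 3.55%, while up to rank 5000 it was lower, at 16.1% against 16.97%. Measured from the 5′ end it was again higher up to rank 5000, at 16.9% against 13.7% without piRNA genes. The share up to rank 1000 was larger than that of microRNA genes in 4 other noncoding biotypes, at 9.25% for snoRNA, 8.50% for tRNA, 7.75% for snRNA and 6.70% for lincRNA genes. The median distance was 561 bp, with 53 genes within 200 bp. Distance and rank were only loosely related across the 176 distinct peaks (Spearman's rho 0.14), which share the same pooled library.

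The replicates supported few of these peaks together. The nearest pooled peak overlapped a replicate 1 peak at 128 genes, a replicate 2 peak at 94, peaks of both at 48 and of neither at 29. Over distinct peaks, 44 of 176 (25.0%, 19.2 to 31.9) overlapped both replicates, against 17.5% of all pooled peaks. The strongest were shared most often. Of the 13 peaks ranked up to 1000, 12 overlapped both replicates, against 74.2% of all pooled peaks of those ranks. An overlap also counts weak replicate peaks. Among the 12, the replicate 2 peak ranked 16788 at mir-8190, 18870 at mir-87 and 11624 at mir-800. The replicate 1 peak ranked 17776 at mir-54. At others, such as mir-1829.2 (ranks 1323 and 1504), both were stronger. Of the 38 ranked up to 5000, 23 (60.5%, 44.7 to 74.4) did, against 45.9%. Past rank 20000, 3 of 49 did (6.12%), against 6.42% of all pooled peaks. Over the 44 peaks found in both replicates, the ranks of the overlapping peaks were nearly unrelated (Spearman's rho 0.05). The same value over all pooled peaks found in both was not computed, so this one has no background beside it. Each replicate's own list gave a similar reach, with a peak point within 2000 bp at 210 genes (80.5%, against 73.7% of all genes) in replicate 1 and at 193 (73.9%, against 71.5%) in replicate 2. Both did so at 163 genes (62.5%, against 55.8%). Without piRNA genes these backgrounds were 82.1%, 76.4% and 65.4%, each above the microRNA share. In all, 19 genes had no peak within 2000 bp in any list.

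**Figure D2:**
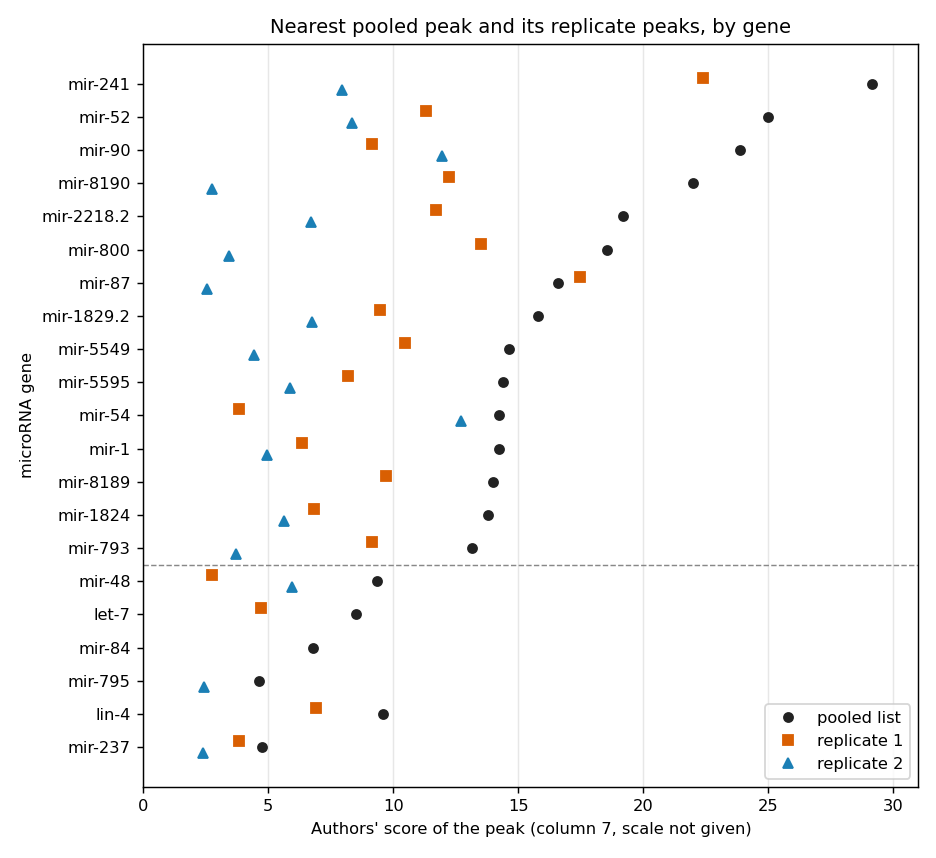
Authors' score of the nearest pooled peak (black circles) and of the overlapping peaks of replicate 1 (orange squares) and replicate 2 (blue triangles), for the 15 best-ranked microRNA genes (above the dashed line) and for the other lin-4 and let-7 family genes (below it). A missing symbol means that no peak of that replicate overlapped. mir-241 has the highest pooled score, 29.1, and mir-84 has a symbol for neither replicate.

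IDR peaks lay within 2000 bp of 5 microRNA genes (1.92%), mir-241, mir-52, mir-90, mir-71 and mir-2221, against 1.15% of genes of all biotypes and 1.497% of those other than piRNA genes. Only mir-52 kept a peak within 2000 bp when each replicate's own 203 highest peaks replaced the IDR set. With those of replicate 1, mir-241, mir-71, mir-2221 and mir-87 also had one, and mir-90 did not. With those of replicate 2, 11 genes had one, among them mir-90 and the 4 genes of the mir-54 to mir-56 cluster, and mir-241, mir-71 and mir-2221 did not.

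mir-241 had the best-ranked nearest peak of all microRNA genes. The peak at chrV:14366565-14366854 had a score of 29.1 in the pooled list (rank 79), 22.4 in replicate 1 (rank 55) and 7.94 in replicate 2 (rank 726), and its point lay 427 bp upstream of the hairpin. It overlapped the noncoding gene F56A12.8, and the nearest start of a protein-coding transcript, of unc-39, was 6364 bp away. The window around mir-241 held 8 pooled peaks, the most of any microRNA gene, where the median was 1. Only 386 of 46890 genes (0.823%) had 8 or more, and most of those were protein-coding genes, which are longer. Farther upstream, the peak at 1500 bp had a pooled rank of 950 and the highest replicate 2 score of the region, 10.3 (rank 218), with no overlapping replicate 1 peak. The peak at 1993 bp had a pooled rank of 579, rank 674 in replicate 1 and rank 2021 in replicate 2. Both replicates thus placed peaks over the same stretch upstream of mir-241, and they differed in which was highest.

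mir-48 lies downstream of mir-241 on the same strand, with 1678 bp between them. Its own nearest peak lay 9 bp upstream and scored 9.33 in the pooled list (rank 4619), 2.74 in replicate 1 (rank 28451) and 5.96 in replicate 2 (rank 2576). The strong mir-241 peak was 2201 bp upstream of mir-48 and so fell outside its window. The 2 genes have the same seed, and the files do not show which of them, if either, the peaks act on.

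let-7 is annotated over 1732 bp, which includes more than the hairpin, while the median microRNA gene is 95 bp long. The nearest peak, at chrX:14744073-14744362, had its point inside the gene and between the 2 mature strands. It scored 8.48 in the pooled list (rank 6318) and 4.70 in replicate 1 (rank 12053), and no replicate 2 peak overlapped it. A stronger peak at chrX:14747031-14747320, 1855 bp upstream of the annotated gene and 2921 bp upstream of the mature strands, scored 15.7 in the pooled list (rank 621) and 13.6 in replicate 1 (rank 315). No replicate 2 peak overlapped that one either, and it overlapped the protein-coding gene C05G5.2. A further pooled peak inside the gene, the nearest to its 5′ end, ranked 11026 and overlapped a replicate 1 peak (rank 9023) and none of replicate 2. Replicate 2 had 1 peak of its own in the window, 1411 bp upstream at rank 20682, which overlapped no pooled peak. All 3 pooled peaks in the let-7 window thus overlapped replicate 1 only, and the strongest fell within the window only because of the long gene model.

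mir-84 had 1 pooled peak in its window, 581 bp downstream, with a score of 6.77 (rank 12039), and it overlapped a peak of neither replicate. Replicate 1 had its own peak 118 bp from mir-84 (rank 8716) and a stronger one 1042 bp upstream (rank 3607). Replicate 2 had none within 2000 bp. Outside the window, a pooled peak 2352 bp upstream ranked 2940 and overlapped a replicate 1 peak of rank 568. mir-795, a further gene with the let-7 seed, had its nearest peak 58 bp downstream at rank 26662, overlapped in replicate 2 (score 2.44, rank 19807) and not in replicate 1. Its highest-scoring peak, 1213 bp downstream, ranked 3123 in the pooled list and 1770 in replicate 1, with no replicate 2 overlap. Among the 5 genes with this seed, all had a pooled peak within 2000 bp, which is common to most genes. At 2 the nearest overlapped both replicates, where 17.5% of all pooled peaks did. An IDR peak was near 1 of the 5, where 1.15% of all genes had one.

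lin-4 lies in an intron of F59G1.4 on the same strand. The pooled peak at chrII:5901863-5902152 lay 246 bp upstream of the hairpin, scored 9.59 in the pooled list (rank 4189) and 6.89 in replicate 1 (rank 4249), and had no overlapping replicate 2 peak. A second replicate 1 peak, 450 bp upstream, overlapped it in part and scored higher, at 7.90 (rank 2710). The nearest replicate 2 peak was 711 bp upstream of lin-4, at rank 8712. The pooled peak also overlapped the noncoding gene F59G1.12. mir-237, which has the lin-4 seed, had its nearest peak 606 bp downstream with scores of 4.76 in the pooled list (rank 25295), 3.83 in replicate 1 (rank 17886) and 2.40 in replicate 2 (rank 20244). Its highest-scoring peak, 1802 bp downstream, ranked 11608 and also overlapped both replicates. Neither gene had an IDR peak.

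**Figure D3:**
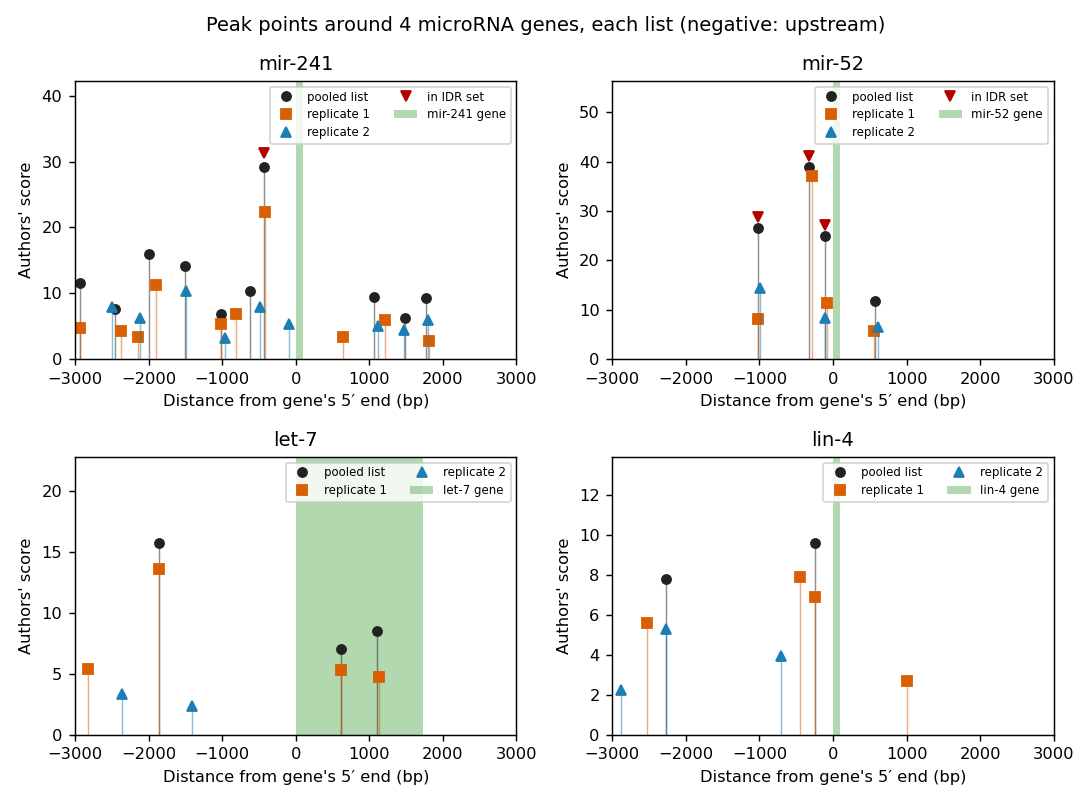
Peak points within 3000 bp of the 5′ end of mir-241, mir-52, let-7 and lin-4, with the authors' score on the vertical axis (a separate scale in each panel) and the list as symbol and colour; the green band is the annotated gene and red triangles mark IDR peaks. mir-52 carries 3 IDR peaks upstream and mir-241 has 1, while let-7 and lin-4 have none, and no replicate 2 peak stands at the highest let-7 or lin-4 peak.

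The mir-51 family, which in C. elegans is needed in the embryo for attachment of the pharynx, was the family with the best median rank of the 6 examined, 1316. All 6 members had a pooled peak, against 71.4% of all genes, and 5 of them ranked up to 5000, against 14.1%. The nearest peaks of 4 overlapped both replicates, where 17.5% of all pooled peaks did. These 6 genes took 5 distinct peaks, and the replicate 2 peak at mir-53 was weak (rank 18587). mir-52 had 3 IDR peaks upstream. The nearest, 115 bp away, scored 24.98 in the pooled list (rank 137), 11.3 in replicate 1 (rank 664) and 8.34 in replicate 2 (rank 576). The peak at 323 bp scored 38.9 in the pooled list (rank 33), the highest of any peak within 2000 bp of a microRNA gene, and the replicate 1 peak at 286 bp ranked 6 in its own list. Replicate 2 had 1 peak across these 2 pooled peaks. The IDR peak at 1014 bp ranked 114 in the pooled list, 2438 in replicate 1 (score 8.11) and 53 in replicate 2 (score 14.48). Each replicate thus had a peak of high rank upstream of mir-52, at different points. Annotated noncoding genes also overlapped both nearer peaks, and the nearest protein-coding start was 9887 bp away.

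mir-54, mir-55 and mir-56 lie together in an intron of F09A5.3 on the opposite strand. The peak upstream of mir-54 scored 14.2 in the pooled list (rank 919), 3.84 in replicate 1 (rank 17776) and 12.7 in replicate 2 (rank 90). The peak downstream of mir-56, which mir-55 shares, scored 12.9 in the pooled list (rank 1316) and 10.03 in replicate 1 (rank 1041), with none in replicate 2. The 2 replicates were strong on opposite sides of this cluster. mir-53 had a peak 86 bp upstream at rank 2871 and mir-51 one 807 bp downstream at rank 5873.

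mir-90 lies in an intron of K01F9.2 on the same strand. Its peak 347 bp upstream scored 23.9 in the pooled list (rank 161), 9.15 in replicate 1 (rank 1529) and 12.0 in replicate 2 (rank 112), so it ranked higher in replicate 2 than in replicate 1. mir-71, a microRNA that promotes long lifespan, had an IDR peak 1331 bp upstream with scores of 23.1 in the pooled list (rank 177), 20.2 in replicate 1 (rank 79) and 4.88 in replicate 2 (rank 5015). Its nearest pooled peak, at 231 bp, ranked 10313. mir-2221 had an IDR peak 1263 bp upstream with scores of 24.8 in the pooled list (rank 142), 22.0 in replicate 1 (rank 59) and 7.21 in replicate 2 (rank 1128), while the peak inside the gene ranked 22916. At these 2 genes the nearest peak was not the strong one.

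The other genes among the 15 best ranks were mir-8190 (rank 212), mir-2218.2 (328), mir-800 (361), mir-87 (519), mir-1829.2 (608), mir-5549 (822), mir-5595 (871), mir-1 (928), mir-8189 (983), mir-1824 (1039) and mir-793 (1226). mir-87 had its peak inside the gene, with scores of 16.6 in the pooled list, 17.5 in replicate 1 (rank 136) and 2.53 in replicate 2 (rank 18870), so the peak was strong in replicate 1 and weak in replicate 2. mir-1, a muscle microRNA conserved across animals, had scores of 14.2 in the pooled list, 6.35 in replicate 1 (rank 5543) and 4.93 in replicate 2 (rank 4848) at a peak 656 bp upstream. mir-8189 was the only 1 of the 15 with no replicate 2 overlap. Several of these peaks lay nearer to a coding start than to the microRNA. The mir-800 peak, 1882 bp from mir-800, was 164 bp from a start of ife-2, and the mir-1829.2 peak, 1401 bp away, was 399 bp from a start of F20D1.3.

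The mir-35, mir-58 and mir-64 families held no nearest peak ranked up to 1000. mir-35 to mir-41, the cluster of the mir-35 family that C. elegans embryos need, shared 1 peak (rank 7209, replicate 1 rank 1337, no replicate 2 overlap) as their nearest. A higher one upstream of the cluster ranked 3151 and overlapped replicate 2 (rank 13809) and not replicate 1, and mir-42 had none within 2000 bp. In the mir-58 family, related to bantam of Drosophila, 4 of 5 genes had a peak, led by mir-80 (30 bp upstream, rank 1608, replicate 1 rank 693, no replicate 2 overlap) and mir-81 (rank 2221), and mir-82 had none. The median rank of those 4 was 3059.5, better than the 5468.5 of the let-7 family (6318 with mir-795). mir-229, mir-64, mir-65 and mir-66 shared 1 peak at rank 18148, and mir-63 had one at rank 5552. At none of the 16 genes with a peak in these 3 families did the nearest one overlap both replicates. Those genes took only 1 distinct peak in the mir-35 family, 4 in the mir-58 family and 2 in the mir-64 family. Over all pooled peaks 17.5% overlapped both, so with this few peaks the count is not a result about these families. The highest-scoring peak of mir-58.2, 605 bp upstream, did so, with rank 1381 in the pooled list, 6688 in replicate 1 and 4449 in replicate 2. mir-34, linked to stress responses, had its nearest peak at rank 23748 and a stronger one 1885 bp upstream at rank 1655 (26784 in replicate 1 and 1119 in replicate 2). The nearest peak of mir-228, a glial microRNA, ranked 20399. mir-238 and the mir-239 genes share 1 seed and had nearest peaks of rank 8824 for mir-238, 1925 for mir-239.2 and 4723 for mir-239.1. The mir-80 peak also lay 1931 bp from mir-238, and the mir-239.2 peak 1002 bp from mir-239.1. lsy-6, which sets left-right asymmetry of a pair of taste neurons, and mir-124, found in sensory neurons of C. elegans, had no pooled peak within 2000 bp.

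The 58 genes without a peak lay 2101 to 17633 bp from the nearest pooled point, with a median of 3238.5 bp. Just inside the limit were mir-5547 at 1831 bp, mir-800 at 1882 bp and mir-2219 at 1945 bp, and just outside were mir-124 at 2101 bp, mir-359 at 2161 bp and mir-786 at 2246 bp. mir-800 is the only 1 of these inside genes with a rank up to 1000. Presence of a pooled peak thus changes with small shifts of the limit.

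The nearest peak lay upstream of the hairpin at 115 genes, downstream at 80 and inside at 8. Upstream made up 59.0% (52.0 to 65.6) of those on either side, against 51.0% over all biotypes. The 13 nearest peaks ranked up to 1000 were upstream at 12 genes and inside at 1, with none downstream. Among genes of all biotypes with a nearest peak of those ranks, 445 had it upstream and 325 downstream. Upstream and downstream counts were 5 and 1 for snRNA, 17 and 8 for snoRNA and 29 and 16 for tRNA genes. They were 12 and 3 for pseudogenes and 185 and 92 for protein-coding genes. For lincRNA genes they were 2 and 4, for ncRNA genes 115 and 136, and for piRNA genes 68 and 65. When the highest-scoring peak within 2000 bp was taken in place of the nearest, 23 microRNA genes had one ranked up to 1000, of which 19 lay upstream, 3 downstream and 1 inside. Genes that share a peak are counted separately here, as mir-54, mir-55 and mir-56 do. This choice of peak was not counted over genes of all biotypes, so these numbers have no background beside them. At ranks over 1000 up to 5000 the nearest peak was upstream at 13 genes and downstream at 15, and at ranks over 10000 up to 20000 it was upstream at 38 and downstream at 26. The share upstream thus did not fall steadily with rank.

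**Figure D4:**
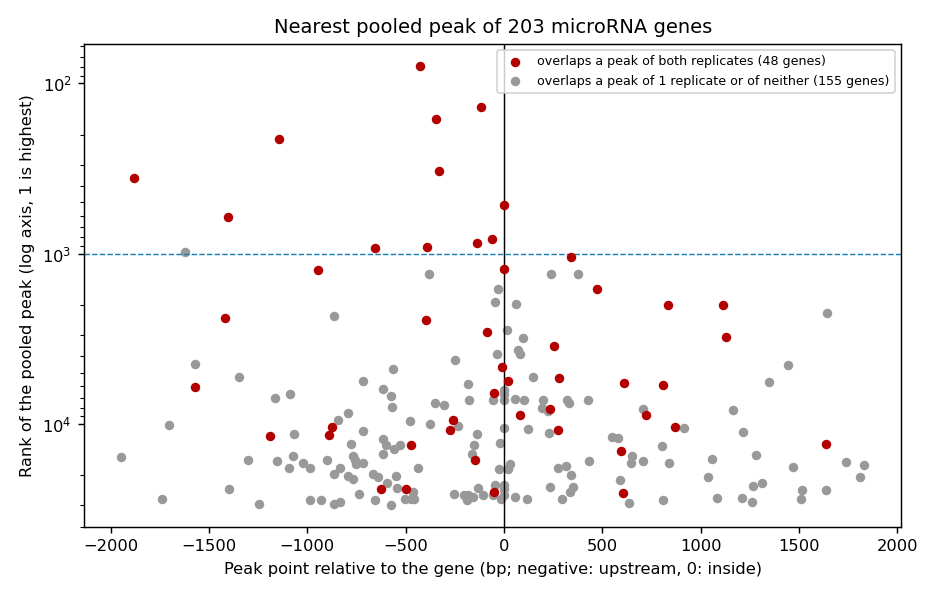
Nearest pooled peak of each of the 203 microRNA genes, by the position of its point relative to the gene on its own strand (horizontal, bp) and its rank in the pooled list (vertical, log axis). Red points, 48 genes, overlap a peak of both replicates, and grey points, 155 genes, do not; above the dashed line at rank 1000, 12 of 13 points are upstream.

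Most microRNA genes, 152, lay between protein-coding genes, 67 in an intron on the same strand, 30 in an intron on the opposite strand and 12 over a coding-gene exon. A pooled peak was within 2000 bp of 73.7%, 82.1%, 90.0% and 75.0% of them in that order. The 90.0% is 27 of 30 genes, among them mir-35 to mir-41, which shared 1 nearest peak. Among chromosomes the share ran from 64.0% on chromosome IV (32 of 50 genes) to 92.6% on chromosome III (25 of 27), and the X chromosome, with 74 microRNA genes, had 82.4%. Shares over all genes by context or by chromosome were not counted, so these shares have no background beside them. Of the 176 distinct peaks, 104 (59.1%, 51.7 to 66.1) had a start of a protein-coding transcript within 2000 bp of the point, against 68.2% of all pooled peaks. For 45 of the 203 genes such a start was closer to the point than the microRNA gene was. Up to rank 1000, 6 of 13 microRNA peaks (46.2%, 23.2 to 70.9) had one within 2000 bp, against 74.4% of all pooled peaks of those ranks. A peak near a microRNA gene is not shown to act on that gene.

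The forkhead core GTAAACA or ATAAACA occurred within 50 bp of the point at 9 of the 176 peaks (5.11%, 2.71 to 9.43), against 4.15% of all pooled peaks, so the share was near the background. Of the 13 peaks ranked up to 1000, 1 held a core (7.69%, 1.37 to 33.3), that of mir-2218.2, against 11% of all pooled peaks of those ranks. The repeat GAGAGA, searched on both strands, which can share an end base with a core, occurred at 28 peaks (15.9%, 11.2 to 22.0), against 8.25% of all pooled peaks. It was at 4 of 13 up to rank 1000 (30.8%), against 25.2%, and at 10 of 38 up to rank 5000 (26.3%, 14.97 to 42.0), against 14.0%. In each of the rank bands drawn the microRNA share was above that of all pooled peaks, with wide intervals. Median GC content of the 101 bases was 38.6% for microRNA peaks and 37.6% for all pooled peaks, and 48.5% and 43.6% up to rank 1000. The part of base composition in the motif shares was not tested.

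**Figure D5:**
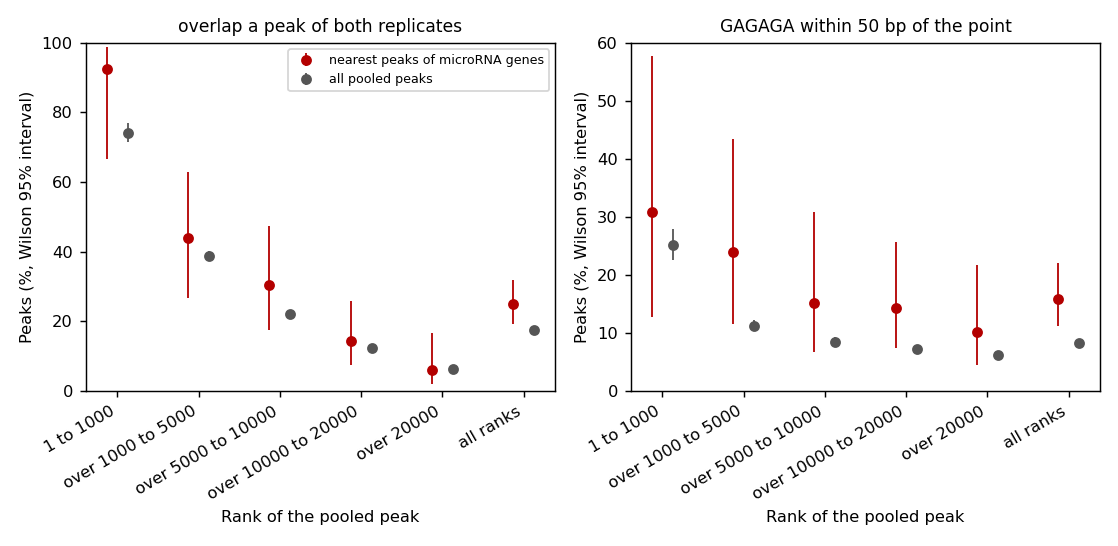
Share of peaks that overlap a peak of both replicates (left) and that hold GAGAGA within 50 bp of the point (right), by rank band, for nearest peaks of microRNA genes (red, 176 in all) and for all pooled peaks (grey, 30000), with Wilson 95% intervals. Replicate overlap falls towards the weaker ranks in both, and over all ranks GAGAGA is at 15.9% of microRNA peaks and 8.25% of all pooled peaks.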

How the data were processed

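Binding of eGFP-tagged FKH-2 was measured in 2 biological replicates of whole L3 larvae. The deposited text files state that the replicate and pooled lists were made from alignments and a control that was not analysed here, and that the IDR set came from those lists. The software for alignment and peak calling, with versions, and the IDR cutoff are not given in the sources used here. Per the labels, libraries had a size range of 150 to 350 bp. The authors deposited a score for each peak, on an unstated scale, and it was used here for ranks within a list. They also deposited a −log10 of the q-value, used only as an alternative threshold. The deposited ce10 lists were not used here.

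Distances, ranks, overlaps, motif matches and Wilson 95% intervals (counting error only) were computed with Python 3.11.15, pandas 2.3.3, numpy 2.4.6 and scipy 1.17.1, and the code was tested on simulated data. Symbols came from RefSeq by WormBase identifier, which matched 260 of 261 genes. No test was run, since there is 1 group. Members, lists, families and motifs were chosen with earlier results of these data known. The text names the lin-4 and let-7 families, genes with an IDR peak, the 15 best-ranked genes, 3 genes on either side of the limit and set families; any other gene was chosen after its values were seen. Depth is unknown, and precision follows from the number of genes or peaks. Backgrounds without piRNA genes were added after the data were seen. Alternatives changed the window, list, overlap, replicate and choice of peak.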

Additional observations from a re-analysis of the deposited data

How the results depend on the processing

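Of 25 alternatives to the 6 summary values, 14 stayed within 1.5 times the count or within the counting interval. The 203 microRNA genes with a pooled peak became 96 within 500 bp, 94 with peaks of −log10 q of at least 1.3 and 75 with the 5000 highest pooled peaks, and 193 to 210 when 1 replicate's list replaced the pooled one. The 48 genes whose peak overlapped both replicates became 10 when the replicate peak had to be among its 5000 highest. The 5 genes with an IDR peak became 3 within 500 bp or 1000 bp, 12 within 5000 bp, and 5 to 11 with the 203 highest peaks of 1 replicate; the 11 came from replicate 2, without replicate 1. The forkhead core share of 5.11% became 11.9% over the whole peak, against 10.6% of all pooled peaks. In the list of replicate 1 it was 2.87%, against 4.03% of all peaks of that list. In the list of replicate 2 it was 3.07%, against 4.19%. The microRNA share was thus below the background in each replicate's list and above it in the pooled list. The median rank of 12160 became 8734 with the highest-scoring peak and 8646 within 500 bp. Within 500 bp the share of microRNA genes with a peak was 36.8%, below the 44.1% of all genes, and within 5000 bp it was 95.02%, above 88.3% of all genes and near the 95.3% of those other than piRNA genes. The rank of the nearest peak was the same for 46 of 48 named genes measured from the 5′ end and for 27 of 48 with the highest-scoring peak. It was the same for 0 of 46 without replicate 1 and for 0 of 47 without replicate 2. The list of 1 replicate holds other peaks and scores, so exactly equal ranks were unlikely from the start. Those 2 counts therefore do not measure how far a gene depends on a replicate.

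No paired analysis was possible because there is 1 group. Depth is unknown, the peaks come from 2 libraries, and a pooled peak with support in 1 replicate rests on that library.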
